A study of Mus musculus with 18 samples.

Results

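Angiogenic and lymphangiogenic growth factors were followed by their transcripts in cultured mouse tendon cells. They are 10 genes listed by name, Figf, Vegfb, Vegfc, Pgf, Hgf, Angpt1, Angptl2, Angptl4, Ptn and Mdk, a list that sets no threshold on expression but was drawn up with earlier results of these data known. All 10 were among the 14391 genes of the deposited table. The study holds 18 RNA-seq libraries of wild-type mouse tendon fibroblasts, in 6 groups of 3. Adult tendon cells received supernatant of stimulated adult T cells, supernatant of stimulated neonatal T cells, or T cell medium without supernatant (here media), and neonatal tendon cells received the same 3 treatments. From its title, the series asks how neonatal tendon cells resist inflammation and what the factors that T cells secrete contribute. All groups shared the same handling except for the number of tendons pooled, which went with cell age and cannot be told apart from it. Cells from 4 adult or 3 neonatal tendons were pooled per well, passaged, frozen, thawed and cultured for 3 days, and 25000 cells then received 1 ml of complete DMEM with 1 ml of the T cell medium or supernatant. Each library is therefore a culture of passaged cells from pooled tendons and not a tissue. The mouse strain, the ages in days and the duration of the treatment were not stated, nor was it whether libraries within a group stem from different mice or wells, so p-values measure only the spread between these libraries.

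Blood and lymph vessels grow when secreted ligands bind receptor tyrosine kinases on endothelial cells, and fibroblasts are a common source of such ligands. Figf (vascular endothelial growth factor D, also called Vegfd) and Vegfc act on Flt4, the receptor of lymphatic endothelium, while Vegfb and Pgf (placental growth factor) act on Flt1. Hgf (hepatocyte growth factor) is the ligand of Met, and Angpt1 (angiopoietin 1) activates Tek, also known as Tie2, and thereby quiets vessels. Angptl2 and Angptl4 are angiopoietin-like proteins that do not bind Tek, and Angptl4 is best known as an inhibitor of lipoprotein lipase. Ptn (pleiotrophin) and Mdk (midkine) form a separate family of heparin-binding factors that are abundant in development. Healthy tendon is poor in vessels.

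Levels are given as CPM, the share of a library's counts that fell on a gene, scaled to the same total in every library. By the estimated depths, 1 CPM was worth 12.7 to 17.7 reads in a library and 3 reads were worth 0.169 to 0.237 CPM, so the lowest member value, 1.47 CPM for Pgf, stood above that limit. The 10 markers of tendon fibroblasts summed to 12250 to 14280 CPM in adult cells with adult supernatant, 26140 to 34650 CPM with neonatal supernatant and 33020 to 36250 CPM in media. In neonatal cells they summed to 13950 to 14730 CPM with adult supernatant, 24290 to 27370 CPM with neonatal supernatant and 30740 to 33870 CPM in media. All 10 were detected in every group, but the sums rest largely on collagens, and single markers went apart. Col1a1 alone stood at 5856 to 6838 CPM in adult cells with adult supernatant. Scx, a transcription factor of the tendon lineage, stood at 2.04 to 4.24 CPM in adult and 127 to 136 CPM in neonatal cells with adult supernatant, and at 11.6 to 19.4 CPM in adult and 317 to 384 CPM in neonatal cells in media. With adult supernatant 8 of the 10 tendon markers fell and 1 rose in cells of either age. Of all genes, 23.9% fell and 28.2% rose in adult cells, and 19.5% and 28.3% in neonatal cells. With neonatal supernatant 4 fell and 3 rose in adult cells, against 11.2% and 16.1% of all genes. In neonatal cells 3 fell and 1 rose with it, against 7.62% and 10.7%. The 10 measured endothelial markers of 12 listed summed to 17.0 to 62.3 CPM over all libraries, and the 4 measured T cell markers of 8 listed to 1.63 to 14.6 CPM. Libraries of a group did not always match in interferon-induced genes. Over 8 such genes the mean level was 3.82 log2 CPM in media library 2 of adult cells, against 2.10 and 1.91 in the other libraries of that group, and 4.02 in media library 1 of neonatal cells, against 0.89 and 0.26. In adult cells with neonatal supernatant it was 4.06, 4.75 and 2.42. Results that changed without such a library are given below with and without it. In bulk RNA, fewer cells of a type and less RNA per cell cannot be told apart.

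Divided by transcript length, Angptl2 was the most abundant member in 5 of the 6 groups, and Figf in the remaining one. Lengths are the bases covered by any exon of the gene in GENCODE M21. In media, adult cells held 63.5 (54.2 to 76.2) CPM per kb of Figf and 44.7 (42.5 to 46.6) of Angptl2, and the ranges did not overlap. In neonatal cells in media the order was the other way round, with 67 (61.1 to 77.9) CPM per kb of Angptl2 and 21.9 (20.3 to 24) of Figf. With adult supernatant, Angptl2 stood at 99.9 (96.2 to 102) CPM per kb in adult and 110.3 (108 to 112) in neonatal cells. Angptl4 took the next place in adult cells, at 78.7 (71.9 to 82.2) CPM per kb, where its range lay above that of Figf, at 38.2 (37.1 to 39.8). Vegfb held the third or the fourth place in every group, at means of 12.5 to 14.9 CPM per kb, and Vegfc stood at 5.93 to 10.1 CPM per kb. Mdk ranged from 2.13 to 5.70 CPM per kb in its group means. Pgf, Hgf and Angpt1 had group means of 0.729 to 2.33 CPM per kb in all groups, and neighbours among them overlapped in several groups. Ptn stood among the middle members in media, at 6.94 (5.70 to 7.95) CPM per kb in adult and 11.1 (9.79 to 13.1) in neonatal cells, and among the lowest with either supernatant, at means of 0.890 to 1.27.

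**Figure D1:**
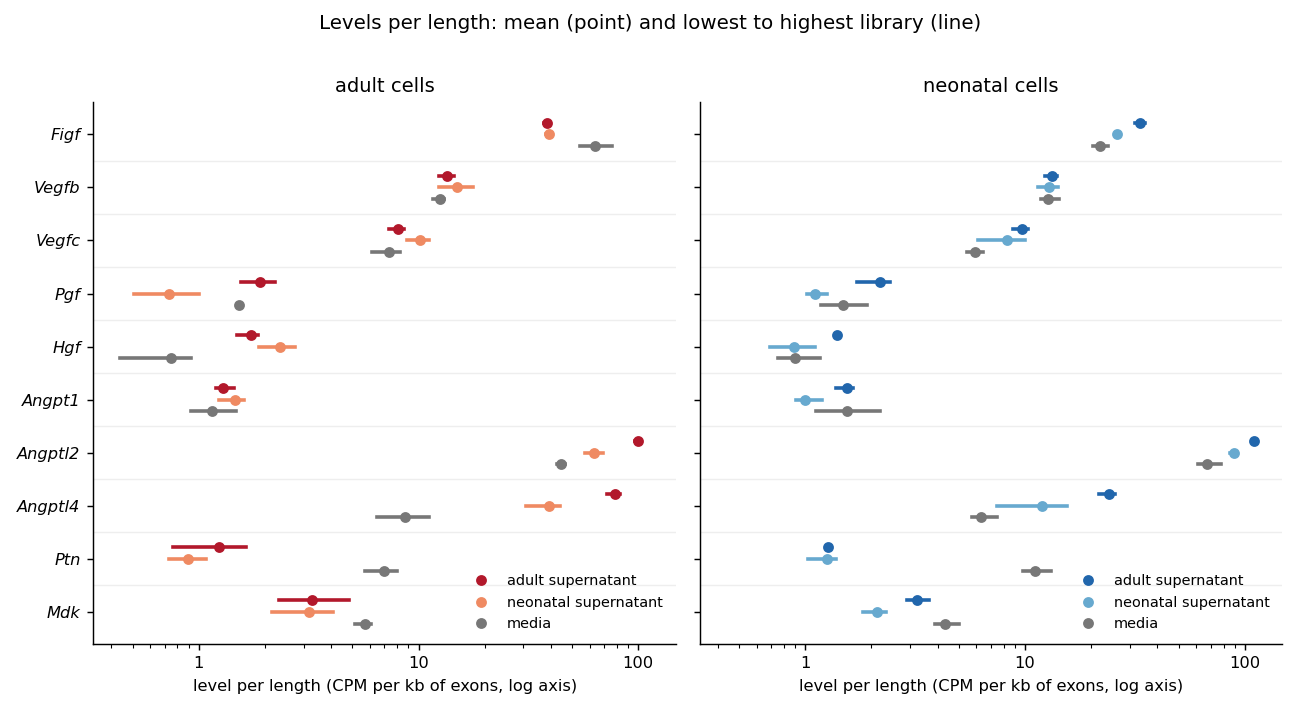
Level per length of each growth factor (horizontal log axis, CPM per kb of exons) in adult cells (left) and neonatal cells (right), with the mean of 3 libraries as a point and the lowest to highest library as a line, coloured by treatment. Angptl2, Figf and Vegfb lay above 10 CPM per kb in every group, while Ptn lay at 0.890 to 1.27 with supernatant and at 6.94 and 11.1 in media.

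Sequence upstream of the transcription start is shown for 3 members that span the range of behaviour described below, namely Ptn, which fell in all 4 responses to supernatant, Angptl2, which rose in all 4, and Vegfb, which passed no test. The windows are those of RefSeq on GRCm38.p6, on the strand of the gene, and stop at the start site or, for Ptn, at the first annotated exon base. Capitals mark the GC box GGGCGG or its complement. Ptn, chr6:36810221-36810429, minus strand, and Angptl2, chr2:33215711-33215960, plus strand, are followed by Vegfb, chr19:6987652-6987901, minus strand.
Ptn: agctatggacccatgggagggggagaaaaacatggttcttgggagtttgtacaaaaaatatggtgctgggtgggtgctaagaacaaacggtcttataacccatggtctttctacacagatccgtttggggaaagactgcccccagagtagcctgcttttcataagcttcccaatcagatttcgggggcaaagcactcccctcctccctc
Angptl2: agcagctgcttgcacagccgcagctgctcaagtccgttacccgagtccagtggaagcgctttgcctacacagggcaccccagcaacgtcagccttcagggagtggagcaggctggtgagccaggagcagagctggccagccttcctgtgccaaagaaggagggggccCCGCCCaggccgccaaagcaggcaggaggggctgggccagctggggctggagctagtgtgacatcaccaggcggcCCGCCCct
Vegfb: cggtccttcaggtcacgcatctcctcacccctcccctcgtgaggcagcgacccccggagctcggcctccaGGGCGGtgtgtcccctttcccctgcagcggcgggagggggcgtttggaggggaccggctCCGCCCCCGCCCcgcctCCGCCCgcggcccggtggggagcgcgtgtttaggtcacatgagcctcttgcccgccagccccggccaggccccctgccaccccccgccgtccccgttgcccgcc
The Ptn stretch held no GC box and was 49.8% G and C, against a median of 52.4% over 32851 windows of 250 upstream bases. The Angptl2 window held 2 GC boxes at 66.8% G and C, and the Vegfb window 4 at 76.4%. Of all windows, 32.7% held a GC box. RefSeq windows were found for 7 members, 9 windows in all, and Angpt1, Angptl4 and Mdk had none. On either strand, none of the 9 held the hypoxia factor core ACGTG (16.6% of all windows), the STAT motif TTCNNNGAA (7.02%) or the AP-1 motif TGANTCA (6.75%). The motif TATAAA (12.4%) occurred in 1 of them, that of Figf, within the 144 bases of the window that are annotated as exon of that gene, and the 106 bases before the first exon held none. Exons of the same gene also took up all 250 bases of both Pgf windows and 150 bases of 1 of the 2 Hgf windows. No motif match overlapped another. These counts describe letters in the windows and nothing about binding.

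Adding T cell supernatant changed most members in at least 1 kind of cell, and Ptn, Angptl2 and Angptl4 changed in every kind. Each difference below is on the log2 CPM scale, as supernatant minus media ± the standard error of limma's fit with 3 libraries a group, and counts as a call at an adjusted p under 0.05 (Benjamini-Hochberg over all genes). The responses to the 2 supernatants share their media libraries. In adult cells with adult supernatant 3 of the 10 members rose and 3 fell, while 28.2% of all genes rose and 23.9% fell. The median difference was 0.17 over the members and 0.03 over all genes. In adult cells with neonatal supernatant 4 rose and 4 fell, against 16.1% and 11.2% of all genes, with medians of 0.30 and 0.03. In neonatal cells with adult supernatant 5 rose and 1 fell, against 28.3% and 19.5%, with medians of 0.58 and 0.07. In neonatal cells with neonatal supernatant 2 rose and 2 fell, against 10.7% and 7.62%, with medians of -0.00025 and 0.04. The members' share of rises in adult cells with adult supernatant was near that of all genes.

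The share of all genes that rose or fell depends on scaling. In adult cells with adult supernatant 4052 genes rose and 3438 fell, but 3139 and 4395 after quantile normalization, which moved the median of all genes by -0.12. In adult cells with neonatal supernatant 2321 and 1608 became 1649 and 1900. Adult supernatant on neonatal cells gave 4074 and 2801, which became 2711 and 4098, with a shift of -0.18. In neonatal cells with neonatal supernatant 1542 and 1096 became 1090 and 1164. No called member changed its direction under any scaling, and calls lost are named beside their gene.

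**Figure D2:**
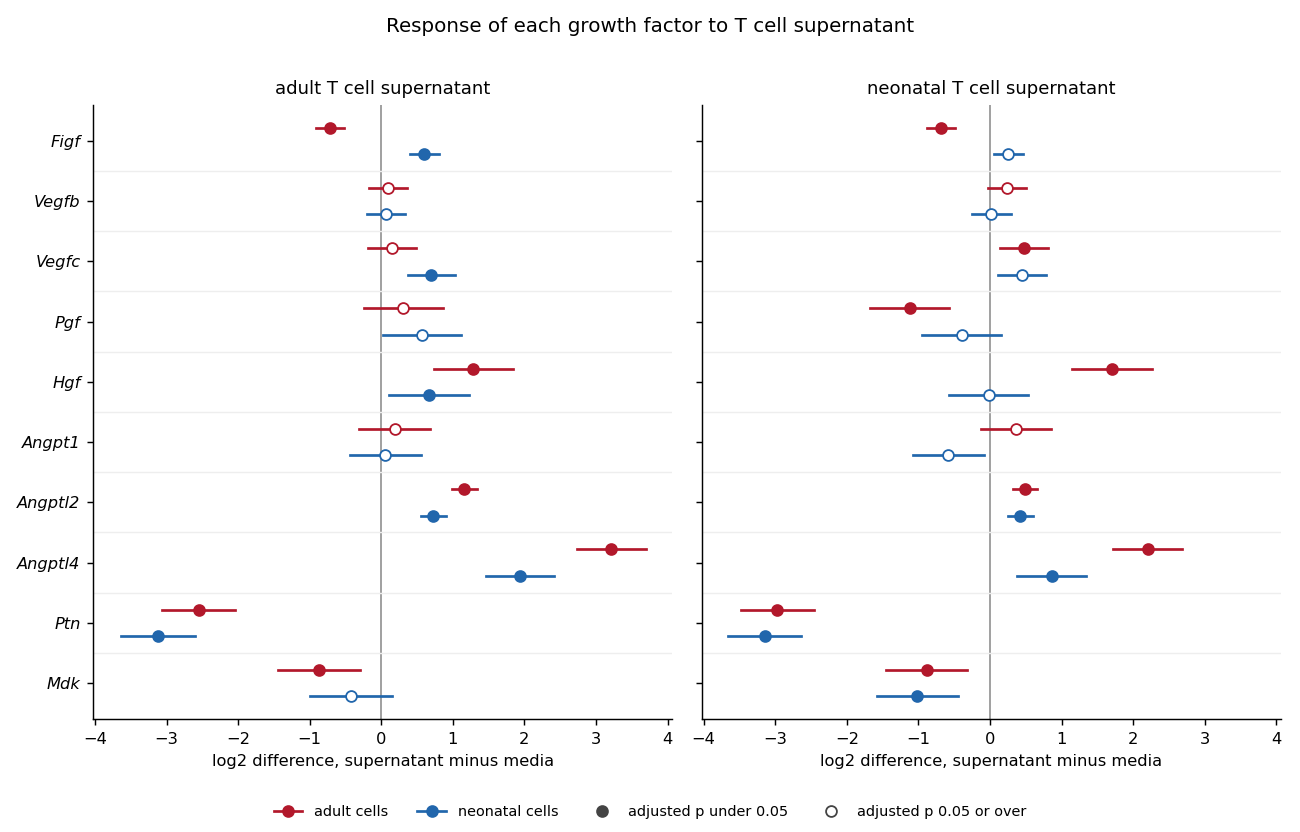
Difference in log2 CPM, supernatant minus media, for each growth factor with adult (left) and neonatal (right) T cell supernatant, in adult cells (red, upper of each pair) and neonatal cells (blue, lower). Points are limma estimates from 3 libraries a group, lines their 95% intervals, and filled points passed an adjusted p of 0.05. Ptn lay at -3.15 to -2.55 in all 4 responses, Angptl4 and Angptl2 lay above 0 in all 4, and Figf lay below 0 in adult and above 0 in neonatal cells.

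Among the vascular endothelial growth factors, Figf fell in adult cells with both supernatants and rose in neonatal cells with adult supernatant. Figf was at 89.3, 91 and 95.9 CPM in adult cells with adult supernatant, 95.3, 95.6 and 91.5 CPM with neonatal supernatant, and 131, 184 and 145 CPM in media. Every supernatant library of adult cells lay below every media library. The differences were -0.72 ± 0.094 with adult supernatant (adjusted p 6.89e-06, limma) and -0.69 ± 0.094 with neonatal supernatant (adjusted p 3.98e-05). In neonatal cells Figf was at 79.3, 84.4 and 76 CPM with adult supernatant, 62, 62.7 and 63.8 CPM with neonatal supernatant, and 57.7, 51.5 and 49 CPM in media. There the supernatant libraries lay above the media libraries without overlap. The rise with adult supernatant was 0.60 ± 0.094 (adjusted p 5.66e-05, limma), and the difference with neonatal supernatant was 0.26 ± 0.094, which did not pass at an adjusted p of 0.0707. Without media library 1 of neonatal cells, high in interferon genes, that difference was 0.32 with an adjusted p of 0.0438. The response of adult minus that of neonatal cells was -1.32 ± 0.13 for adult supernatant (adjusted p 2.56e-05, limma) and -0.94 ± 0.13 for neonatal supernatant (adjusted p 0.00361), and both calls held without any single library, with adjusted p of at most 0.000177 and 0.0142.

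Vegfc, the other ligand of Flt4, was at 18, 21 and 20.2 CPM in adult cells with adult supernatant, 27.4, 25.3 and 21.8 CPM with neonatal supernatant, and 20.3, 15.1 and 18.5 CPM in media. The libraries with neonatal supernatant lay above those in media, while those with adult supernatant overlapped media. The rise with neonatal supernatant was 0.47 ± 0.16 (adjusted p 0.0348, limma). That call was lost without media library 2, which was high in interferon genes (0.35, adjusted p 0.151), without media library 3 (0.50, 0.0607) and without supernatant library 1 (0.40, 0.131) or 2 (0.45, 0.0890). The difference with adult supernatant was 0.15 ± 0.16 (adjusted p 0.466). In neonatal cells Vegfc was at 25.2, 21.6 and 24 CPM with adult supernatant, 24.6, 21 and 15 CPM with neonatal supernatant, and 14.6, 13.3 and 15.7 CPM in media. All libraries with adult supernatant lay above media, and library 3 with neonatal supernatant lay within the media range. Vegfc rose by 0.70 ± 0.16 with adult supernatant (adjusted p 0.00149, limma), and differed by 0.45 ± 0.16 with neonatal supernatant (adjusted p 0.0587), or by 0.65 without library 3 (adjusted p 0.00440). The adult minus neonatal difference in the response to adult supernatant did not pass, at -0.56 ± 0.22 (adjusted p 0.191).

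The ligands of Flt1 behaved differently from each other. Vegfb passed no test in any of the 11 comparisons, and its group means ran from 20.1 to 24.0 CPM. Its libraries ran from 18.8 to 28.5 CPM in adult cells and from 18.4 to 22.8 CPM in neonatal cells, with overlap between all groups. The 95% interval of its response was -0.17 to 0.36 in adult and -0.20 to 0.33 in neonatal cells with adult supernatant, and -0.029 to 0.51 in adult and -0.25 to 0.29 in neonatal cells with neonatal supernatant. Without library 3 of adult cells with neonatal supernatant, that difference in adult cells was 0.36 with an adjusted p of 0.0489. Pgf was at 6.49, 5.60 and 4.51 CPM in adult cells with adult supernatant, 1.96, 1.47 and 2.92 CPM with neonatal supernatant, and 4.34, 4.54 and 4.38 CPM in media. The libraries with neonatal supernatant were the low ones, without overlap with either other group. The difference with neonatal supernatant was -1.12 ± 0.26 (adjusted p 0.00392, limma). In neonatal cells Pgf was at 4.99, 6.91 and 7.06 CPM with adult supernatant, 2.94, 3.66 and 3.06 CPM with neonatal supernatant, and 3.95, 3.41 and 5.56 CPM in media. Both supernatant groups overlapped media there, and the differences of 0.57 ± 0.26 with adult supernatant (adjusted p 0.0829) and -0.39 ± 0.26 with neonatal supernatant (adjusted p 0.337) did not pass.

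Hgf rose in adult cells with both supernatants. It was at 10.7, 13.2 and 13.4 CPM in adult cells with adult supernatant, 19.7, 13.5 and 17.1 CPM with neonatal supernatant, and 3.14, 6.33 and 6.60 CPM in media. Every supernatant library lay above every media library, and media library 1 was the lowest of all. The rises were 1.28 ± 0.26 (adjusted p 0.000569, limma) with adult and 1.70 ± 0.26 (adjusted p 0.000121) with neonatal supernatant, folds of 2.43 and 3.26. In neonatal cells Hgf was at 10.2, 10.1 and 9.90 CPM with adult supernatant, 6.21, 7.97 and 4.98 CPM with neonatal supernatant, and 5.64, 5.41 and 8.41 CPM in media. With neonatal supernatant the libraries overlapped media, and the difference was -0.020 ± 0.26 (adjusted p 0.973). The rise with adult supernatant was 0.66 ± 0.26 at an adjusted p of 0.0460. It was lost without media library 1 (0.58, adjusted p 0.132) or 2 (0.55, 0.151), without any 1 of the supernatant libraries (0.66 to 0.68, 0.0854 to 0.0935), and under TMM-like scaling (0.58, 0.0677). With quantile normalization it was 0.44 (adjusted p 0.137). The response to neonatal supernatant was 1.72 ± 0.37 larger in adult than in neonatal cells (adjusted p 0.0348, limma). This call held when media library 2 or 3 or supernatant library 3 of adult cells, or supernatant library 2 of neonatal cells, was left out, and was lost without any of the other 8 libraries in turn (1.38 to 1.87, adjusted p 0.0565 to 0.0929).

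Angpt1 was a low and variable member that passed in no response. It was at 6.24, 6.47 and 7.51 CPM in adult cells with adult supernatant, 8.12, 8.35 and 6.41 CPM with neonatal supernatant, and 5.54, 7.68 and 4.79 CPM in media, with overlap throughout. In neonatal cells it was at 8.51, 8.61 and 7.15 CPM with adult supernatant, 4.76, 6.18 and 4.72 CPM with neonatal supernatant, and 5.81, 7.10 and 11.3 CPM in media, where library 3 was the high one. The differences from media were 0.19 ± 0.23, 0.36 ± 0.23, 0.055 ± 0.23 and -0.58 ± 0.23 for adult cells with adult and neonatal supernatant and neonatal cells with adult and neonatal supernatant, at adjusted p of 0.525, 0.279, 0.868 and 0.0963. Without media library 1 the last of these was -0.79 with an adjusted p of 0.0378.

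The angiopoietin-like members rose in all 4 responses. Angptl4 was at 291, 255 and 290.3 CPM in adult cells with adult supernatant, 156, 153 and 109 CPM with neonatal supernatant, and 23, 39.7 and 29.4 CPM in media. The 3 groups did not overlap, and the rises were 9.29-fold (log2 3.22 ± 0.23, adjusted p 3.74e-09, limma) and 4.60-fold (log2 2.20 ± 0.23, adjusted p 1.97e-06). In neonatal cells Angptl4 was at 77.1, 87.4 and 91.2 CPM with adult supernatant, 45.6, 55 and 26.3 CPM with neonatal supernatant, and 20.4, 20.3 and 26.4 CPM in media. The libraries with adult supernatant lay above the rest, while library 3 with neonatal supernatant lay just below the highest media library. The rises were 3.83-fold (log2 1.94 ± 0.23, adjusted p 2.34e-06, limma) and 1.82-fold (log2 0.87 ± 0.23, adjusted p 0.0131). The last was lost without supernatant library 1 (0.78, adjusted p 0.0582) or 2 (0.64, 0.0840) and without media library 2 (0.80, 0.0535). The response to adult supernatant was 1.28 ± 0.32 larger in adult than in neonatal cells (adjusted p 0.0307, limma), a call that held when library 2 of adult cells in either group or media library 1 or 2 of neonatal cells was left out, and was lost without any of the other 8 libraries in turn (1.09 to 1.33, adjusted p 0.0537 to 0.0784). For neonatal supernatant the same difference was 1.34 ± 0.32 (adjusted p 0.0649).

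Angptl2, the more abundant of the pair, was at 642, 605 and 638 CPM in adult cells with adult supernatant, 435, 361 and 388 CPM with neonatal supernatant, and 267, 293 and 283 CPM in media. In neonatal cells it was at 676, 706 and 697 CPM with adult supernatant, 576, 541 and 568 CPM with neonatal supernatant, and 384, 389.8 and 489 CPM in media. Within each age the 3 groups stood apart in the order adult supernatant, neonatal supernatant, media. The rises in adult cells were 1.16 ± 0.081 (adjusted p 3.01e-09, limma) with adult and 0.49 ± 0.081 (adjusted p 0.000243) with neonatal supernatant. In neonatal cells they were 0.73 ± 0.081 (adjusted p 1.22e-06) with adult and 0.42 ± 0.081 (adjusted p 0.00123) with neonatal supernatant. All 4 calls held in each alternative run. The response to adult supernatant was 0.43 ± 0.11 larger in adult cells (adjusted p 0.0377, limma), which held when supernatant library 2 of adult cells or media library 1 or 2 of neonatal cells was left out, and was lost without any of the other 9 libraries in turn (0.32 to 0.46, adjusted p 0.0524 to 0.0887). Quantile normalization gave 0.32 (adjusted p 0.135).

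Of the heparin-binding members, Ptn fell in all 4 responses and Mdk in 3 of them. Ptn was at 4.40, 5.65 and 2.64 CPM in adult cells with adult supernatant, 3.72, 2.93 and 2.51 CPM with neonatal supernatant, and 19.6, 27.3 and 24.6 CPM in media. In neonatal cells it was at 4.25, 4.42 and 4.37 CPM with adult supernatant, 4.65, 3.52 and 4.76 CPM with neonatal supernatant, and 45.1, 33.6 and 35.6 CPM in media. Every supernatant library of either age lay at 5.65 CPM or below and every media library at 19.6 CPM or above. The differences were -2.55 ± 0.24 in adult cells with adult supernatant (adjusted p 1.44e-07, limma) and -2.97 ± 0.24 with neonatal supernatant (adjusted p 1.32e-07). In neonatal cells they were -3.12 ± 0.24 with adult (adjusted p 1.48e-08) and -3.15 ± 0.24 with neonatal supernatant (adjusted p 9.33e-08). The levels with media were thus 5.86-fold to 8.85-fold those with supernatant, and all 4 calls held in each alternative run. The size of the fall was not shown to differ by age, with adult minus neonatal differences of 0.57 ± 0.34 (95% interval -0.15 to 1.29) and 0.18 ± 0.34 (-0.55 to 0.90).

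Mdk, the other member of that family, was at 3.59, 6.38 and 3.06 CPM in adult cells with adult supernatant, 4.37, 5.4 and 2.86 CPM with neonatal supernatant, and 6.80, 8.05 and 7.78 CPM in media. Supernatant and media libraries did not overlap, although supernatant library 2 came close to media in the first of these. The differences were -0.87 ± 0.27 (adjusted p 0.0124, limma) and -0.89 ± 0.27 (adjusted p 0.0215). The first was lost without adult-supernatant library 3 (-0.65, adjusted p 0.0675). The call with neonatal supernatant was lost without its library 3 (-0.63, adjusted p 0.106), without media library 2 (-0.84, 0.0643) or without media library 3 (-0.86, 0.0599). In neonatal cells Mdk was at 3.85, 4.05 and 4.84 CPM with adult supernatant, 2.44, 2.95 and 3.07 CPM with neonatal supernatant, and 5.39, 5.13 and 6.60 CPM in media. Here too no supernatant library reached a media library. The difference with neonatal supernatant was -1.01 ± 0.27 (adjusted p 0.0139, limma), lost without supernatant library 1 (-0.91, 0.0595) or media library 3 (-0.91, 0.0558), and the difference with adult supernatant was -0.42 ± 0.27 (adjusted p 0.212), or -0.79 with an adjusted p of 0.0124 after quantile normalization.

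**Figure D3:**
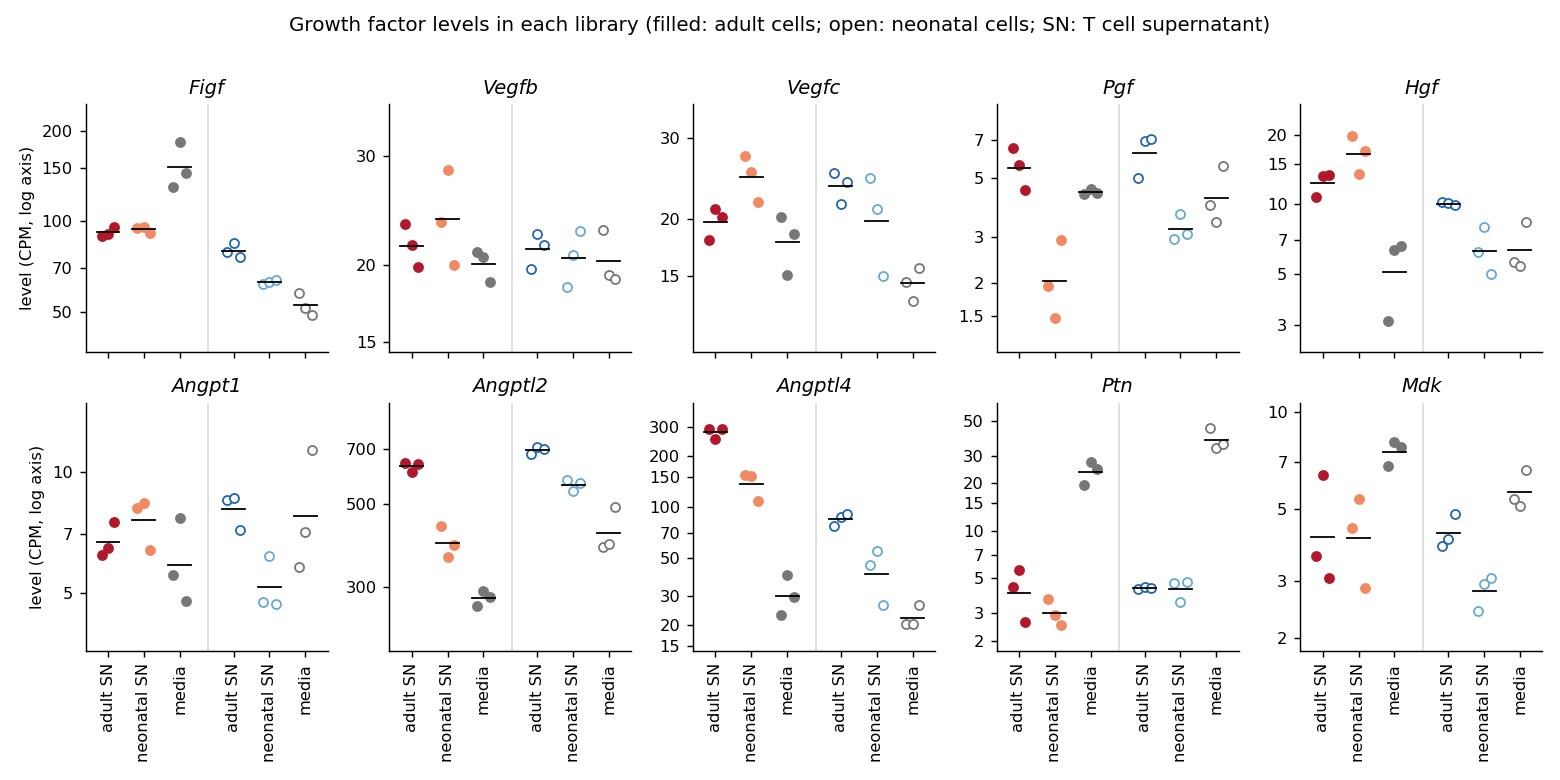
Level of each growth factor in every library (vertical log axis, CPM), with adult cells as filled and neonatal cells as open points, each in the order adult supernatant, neonatal supernatant and media, and the mean of the log2 values as a line. Ptn in media lay at 19.6 to 45.1 CPM, above all supernatant libraries at 2.51 to 5.65 CPM, and Figf was highest in adult cells in media, at 131 to 184 CPM.

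Adult and neonatal supernatant were set against each other within each age of cell. In adult cells 3 of the 10 members were higher with adult supernatant and 0 were lower, against 13.5% and 15.1% of all genes. These were Pgf (1.43 ± 0.26, adjusted p 0.000447, limma), Angptl4 (1.01 ± 0.23, adjusted p 0.00258) and Angptl2 (0.67 ± 0.081, adjusted p 6.18e-06). At an unadjusted p under 0.05 the count of lower members was also 0. All Hgf libraries with adult supernatant lay below those with neonatal supernatant, but the difference of -0.42 ± 0.26 did not pass (adjusted p 0.255). In neonatal cells 5 were higher with adult supernatant and 0 lower, against 18.7% and 13.7% of all genes, and at an unadjusted p under 0.05 the count of lower members was again 0. The 5 were Angptl4 (1.07 ± 0.23, adjusted p 0.00188), Pgf (0.96 ± 0.26, adjusted p 0.0101), Angpt1 (0.64 ± 0.23, adjusted p 0.0458), Figf (0.35 ± 0.094, adjusted p 0.0107) and Angptl2 (0.30 ± 0.081, adjusted p 0.00901). After quantile normalization 1889 genes were higher and 3004 lower in neonatal cells, in place of 2690 and 1969, with the median of all genes shifted by -0.13. The calls of Pgf (0.65, adjusted p 0.0909) and Angpt1 (0.42, 0.172) were then lost. The Angpt1 call was also lost without library 1 (0.60, adjusted p 0.114), 2 (0.59, 0.119) or 3 (0.73, 0.0591) with adult supernatant, without library 1 (0.58, 0.123) or 3 (0.57, 0.134) with neonatal supernatant, and under TMM-like scaling (0.60, 0.0558). Hgf differed by 0.68 ± 0.26 (adjusted p 0.0556), which passed without library 2 with neonatal supernatant (0.86, adjusted p 0.0345).

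Adult and neonatal cells were also set against each other under the same treatment. In media 1 of the 10 members was higher in adult cells and 2 were lower, against 12% and 16.7% of all genes. The members' shares in media were thus near those of all genes. Figf was the higher one, by 1.52 ± 0.094 (2.88-fold, adjusted p 9.69e-09, limma), and no adult media library overlapped a neonatal one. Angptl2 was lower, with a difference of -0.58 ± 0.081 (adjusted p 6.04e-05). Ptn was lower as well, with -0.68 ± 0.24 at an adjusted p of 0.0442, a call lost without any 1 of the 6 libraries in turn (-0.78 to -0.54, adjusted p 0.0548 to 0.165). Without the 2 media libraries high in interferon genes the difference of Ptn was -0.66 (adjusted p 0.165) and that of Angpt1 -0.80 (adjusted p 0.0388). With adult supernatant 1 member was higher in adult cells and 0 lower, against 5.86% and 14.7%, and at an unadjusted p under 0.05 the count of lower members was also 0. Angptl4 was the higher one, by 1.71 ± 0.23 (3.27-fold, adjusted p 4.74e-05, limma). Here 844 genes were higher and 2120 lower, but 1201 and 1542 after quantile normalization and 1152 and 1302 under TMM-like scaling. With neonatal supernatant 3 members were higher in adult cells and 1 lower, against 12.3% and 17.5%. Angptl4 was higher by 1.77 ± 0.23 (adjusted p 2.53e-05, limma), Hgf by 1.40 ± 0.26 (adjusted p 0.000697) and Figf by 0.58 ± 0.094 (adjusted p 0.000201), while Angptl2 was lower, with a difference of -0.51 ± 0.081 (adjusted p 0.000158). Pgf differed by -0.66 ± 0.26 (adjusted p 0.0678), which passed without library 3 of adult cells with neonatal supernatant (-0.92, adjusted p 0.0166). Figf, at 2.88-fold in media, stood at 1.15-fold with adult supernatant, where the difference of 0.21 ± 0.094 did not pass (adjusted p 0.144).

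**Figure D4:**
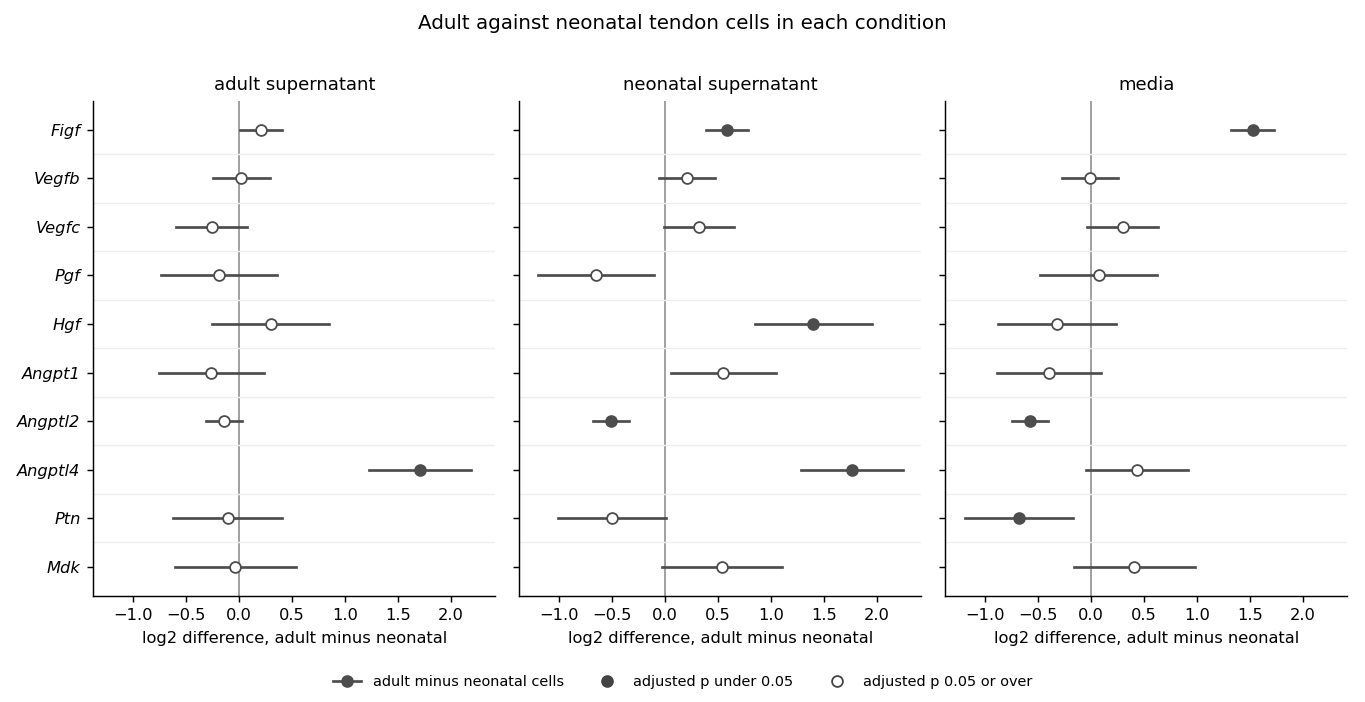
Difference in log2 CPM, adult minus neonatal cells, for each growth factor with adult supernatant, with neonatal supernatant and in media, with limma estimates from 3 libraries a group as points and 95% intervals as lines. Filled points passed an adjusted p of 0.05. Figf lay at 0.21 with adult and 0.58 with neonatal supernatant and at 1.52 in media, while Angptl4 lay at 1.71 and 1.77 with supernatant and at 0.43 in media.

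Whether a response differed by age was tested over all genes as an interaction. For adult supernatant 2 of the 10 members responded more strongly upward in adult cells (Angptl4 and Angptl2) and 1 responded lower (Figf), against 1.55% and 3% of all genes. Over all genes, 223 were higher and 432 lower, and 278 and 311 under TMM-like scaling. For neonatal supernatant 1 member was higher (Hgf) and 1 lower (Figf), against 0.361% and 0.493%. Angptl4, with 1.34 ± 0.32 (adjusted p 0.0649), and Angpt1, with 0.95 ± 0.33 (adjusted p 0.194), did not pass for neonatal supernatant. The remaining interactions of the members had adjusted p of 0.191 to 0.985.

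The receptors of these ligands were partly transcribed in the same cultures, and 11 of 12 listed were measured. With adult supernatant 4 rose and 4 fell in adult cells, against 28.2% and 23.9% of all genes, and 3 rose and 5 fell in neonatal cells, against 28.3% and 19.5%. With neonatal supernatant 2 rose and 5 fell in adult cells, against 16.1% and 11.2%, and 2 rose and 3 fell in neonatal cells, against 10.7% and 7.62%. The receptors' share of rises was near that of all genes in neonatal cells with adult supernatant. The median differences over the list were -0.23 and -0.10 in adult and neonatal cells with adult supernatant and -0.15 and -0.17 with neonatal supernatant, beside 0.03 to 0.07 over all genes. Flt4, the receptor of Figf and Vegfc, was at 23.3, 21.6 and 25.9 CPM in adult cells with adult supernatant, 11, 10.6 and 7.51 CPM with neonatal supernatant, and 4.81, 4.94 and 5.80 CPM in media. In neonatal cells it was at 60.3, 62.6 and 59.8 CPM with adult supernatant, 26.6, 20.5 and 23.3 CPM with neonatal supernatant, and 13.3, 15.7 and 14.8 CPM in media. The 3 groups of each age did not overlap, and the rises were 2.19 ± 0.14 with adjusted p 1.51e-09, 0.89 ± 0.14 with adjusted p 0.000199, 2.07 ± 0.14 with adjusted p 3.99e-09 and 0.68 ± 0.14 with adjusted p 0.00284 for adult cells with adult and neonatal supernatant and neonatal cells with adult and neonatal supernatant. Flt4 is also a marker of lymphatic endothelium, for which 2 of 3 listed markers were measured and Lyve1 was not. Prox1, the transcription factor that defines those cells, rose with Flt4 in neonatal cells with adult supernatant (1.02 ± 0.40 with adjusted p 0.0433), at 3.14, 2.41 and 4.36 CPM against 1.46, 1.16 and 2.34 CPM in media. In the other 3 responses Prox1 did not pass. Its differences were 0.080 ± 0.40 with adjusted p 0.883 and -0.26 ± 0.40 with adjusted p 0.674 in adult cells with adult and neonatal supernatant. In neonatal cells with neonatal supernatant it differed by 0.39 ± 0.40 with adjusted p 0.560. By age the 2 markers went opposite ways in media. Adult minus neonatal cells gave -1.49 ± 0.14 with adjusted p 1.58e-06 (limma) for Flt4 and 1.14 ± 0.40 with adjusted p 0.0400 for Prox1. Pecam1, listed here as a marker of endothelium, rose in neonatal cells with adult supernatant (2.97 ± 0.37 with adjusted p 4.32e-06) and neonatal supernatant (1.40 ± 0.37 with adjusted p 0.0130). It also rose in adult cells with adult supernatant (1.28 ± 0.37 with adjusted p 0.00744). Its libraries stood at 12.2 to 22.4, 11.3 to 14.9 and 5.31 to 6.98 CPM in adult cells and 9.12 to 11.2, 2.50 to 4.20 and 0.659 to 2.54 CPM in neonatal cells, in the order adult supernatant, neonatal supernatant, media. Of the 10 endothelial markers, which include Kdr and Tie1, 5 rose and 1 fell in neonatal cells with adult supernatant, against 28.3% and 19.5% of all genes. With neonatal supernatant 3 rose and 1 fell there, against 10.7% and 7.62%. In adult cells 1 rose and 2 fell with adult supernatant, against 28.2% and 23.9%. Neonatal supernatant gave 0 and 1 in adult cells, against 16.1% and 11.2%. The share of falls was near that of all genes except in neonatal cells with adult supernatant. Cdh5, another of these markers, passed in none of the 4, at 0.988 to 11.2 CPM. Of the macrophage markers, Ptprc (3.51 ± 0.55 with adjusted p 6.07e-05, limma) and Itgam (3.83 ± 0.47 with adjusted p 3.84e-06) also rose in neonatal cells with adult supernatant. Lyz2 fell there (-0.74 ± 0.20 with adjusted p 0.00613). The part of endothelial cells or macrophages in the Flt4 and Pecam1 levels was not tested.

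Kdr, which Vegfc can bind after processing, fell in all 4 responses, with differences of -2.04 ± 0.29 with adjusted p 1.61e-05 and -1.03 ± 0.29 with adjusted p 0.0134 in adult cells with adult and neonatal supernatant and -1.97 ± 0.29 with adjusted p 2.9e-05 and -1.39 ± 0.29 with adjusted p 0.00264 in neonatal cells. Tek, the receptor of Angpt1, fell likewise, with differences of -1.99 ± 0.21 with adjusted p 6.05e-07 and -0.90 ± 0.21 with adjusted p 0.00449 in adult and -1.39 ± 0.21 with adjusted p 4.24e-05 and -0.75 ± 0.21 with adjusted p 0.0201 in neonatal cells. It was at 24.9 to 31.4 CPM in adult cells in media and at 10.1 to 13 CPM in neonatal cells in media. Tie1, its orphan relative, rose in neonatal cells (1.64 ± 0.37 with adjusted p 0.00154 and 1.11 ± 0.37 with adjusted p 0.0467) and did not pass in adult cells (0.072 ± 0.37 with adjusted p 0.888 and 0.081 ± 0.37 with adjusted p 0.902). Flt1, bound by Vegfb and Pgf, rose in adult cells with both supernatants (1.93 ± 0.30 with adjusted p 4.29e-05 and 1.52 ± 0.30 with adjusted p 0.00111) and in neonatal cells with adult supernatant (0.77 ± 0.30 with adjusted p 0.0434), with 0.24 ± 0.30 with adjusted p 0.652 for neonatal supernatant. The co-receptor Nrp1 fell in 3 of the 4 responses, with differences of -1.41 ± 0.085 with adjusted p 5.79e-10 and -0.36 ± 0.085 with adjusted p 0.00468 in adult cells and -0.76 ± 0.085 with adjusted p 1.43e-06 in neonatal cells with adult supernatant, and its relative Nrp2 rose in adult cells with adult supernatant by 0.59 ± 0.093 with adjusted p 4.93e-05. Met, the receptor of Hgf, fell with neonatal supernatant in adult (-0.48 ± 0.15 with adjusted p 0.0225) and neonatal cells (-0.59 ± 0.15 with adjusted p 0.0105) and differed by -0.23 ± 0.15 with adjusted p 0.212 and 0.024 ± 0.15 with adjusted p 0.910 with adult supernatant. Of the receptors shared by Ptn and Mdk, Ptprz1 was low, at group means of 1.11 to 4.49 CPM, and fell in adult cells with neonatal supernatant (-1.65 ± 0.51 with adjusted p 0.0241) and in neonatal cells with adult supernatant (-1.53 ± 0.51 with adjusted p 0.0208). Sdc3 rose in adult cells with adult supernatant (0.39 ± 0.096 with adjusted p 0.00252), and Lrp1 fell with adult supernatant in adult (-0.35 ± 0.066 with adjusted p 0.000259) and neonatal cells (-0.31 ± 0.066 with adjusted p 0.000840).

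**Figure D5:**
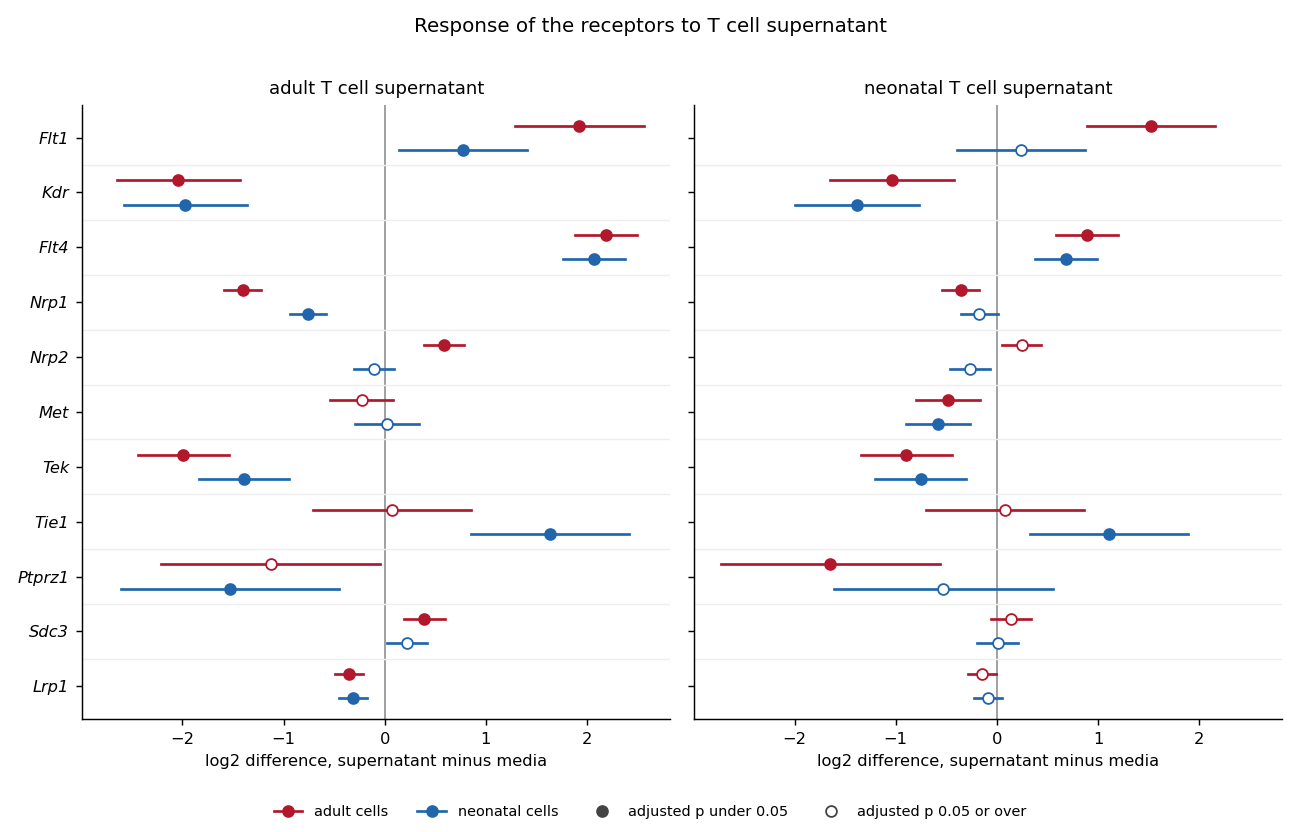
Difference in log2 CPM, supernatant minus media, for 11 receptors of the growth factors with adult (left) and neonatal (right) T cell supernatant, in adult cells (red, upper of each pair) and neonatal cells (blue, lower), with limma estimates as points and 95% intervals as lines. Filled points passed an adjusted p of 0.05. Flt4 lay between 0.68 and 2.19, Kdr between -2.04 and -1.03, and Tek between -1.99 and -0.75.

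Related ligands moved in different directions, and 8 of 11 listed were measured. Vegfa, the main inducer of blood vessel growth, rose in all 4 responses, by 1.14 ± 0.13 with adjusted p 1.44e-06 and 0.88 ± 0.13 with adjusted p 8.78e-05 in adult cells with adult and neonatal supernatant and 1.22 ± 0.13 with adjusted p 7.79e-07 and 0.56 ± 0.13 with adjusted p 0.00582 in neonatal cells. Angptl7 fell with adult supernatant (-1.66 ± 0.19 with adjusted p 1.35e-06 in adult and -1.39 ± 0.19 with adjusted p 1.24e-05 in neonatal cells) and rose with neonatal supernatant (0.87 ± 0.19 with adjusted p 0.00241 and 1.42 ± 0.19 with adjusted p 4.14e-05). Angpt4, another ligand of Tek, likewise fell with adult supernatant (-1.41 ± 0.20 with adjusted p 1.6e-05 in adult and -1.88 ± 0.20 with adjusted p 7.78e-07 in neonatal cells) and rose in adult cells with neonatal supernatant (0.89 ± 0.20 with adjusted p 0.00299). Counted over the list, adult supernatant gave 2 rises and 3 falls in adult cells (median -0.47), against 28.2% and 23.9% of all genes, and 3 and 3 in neonatal cells (median 0.47), against 28.3% and 19.5%. Neonatal supernatant gave 4 and 0 in adult cells (median 0.73), against 16.1% and 11.2%, and 2 and 1 in neonatal cells (median 0.58), against 10.7% and 7.62%. Of 12 measured genes that process or activate these ligands, adult supernatant raised 4 and lowered 3 in adult cells (median 0.27) and 6 and 3 in neonatal cells (median 0.77), beside the same shares of all genes. Neonatal supernatant raised 5 and lowered 2 in adult cells (median 0.42) and 3 and 2 in neonatal cells (median 0.22). Ccbe1, a cofactor in the cleavage of Vegfc, rose in all 4 responses, by 2.25 ± 0.13 with adjusted p 2.73e-10 and 1.29 ± 0.13 with adjusted p 1.33e-06 in adult and 1.73 ± 0.13 with adjusted p 8.58e-09 and 0.80 ± 0.13 with adjusted p 0.000250 in neonatal cells. The proprotein convertase Pcsk6 fell in each, with differences of -3.60 ± 0.19 with adjusted p 1.3e-10 and -2.19 ± 0.19 with adjusted p 3.42e-07 in adult and -3.15 ± 0.19 with adjusted p 8.72e-10 and -1.48 ± 0.19 with adjusted p 3.32e-05 in neonatal cells. St14, the protease matriptase, which can activate Hgf, fell in all 4 responses, with differences of -2.50 ± 0.25 with adjusted p 2.76e-07 and -2.26 ± 0.25 with adjusted p 3.95e-06 in adult and -1.70 ± 0.25 with adjusted p 2.87e-05 and -1.23 ± 0.25 with adjusted p 0.00207 in neonatal cells. Furin, another proprotein convertase, rose with adult supernatant (0.61 ± 0.071 with adjusted p 1.73e-06 in adult and 0.65 ± 0.071 with adjusted p 1.11e-06 in neonatal cells). It also rose in adult cells with neonatal supernatant (0.35 ± 0.071 with adjusted p 0.0013, limma). Plau, the protease urokinase, rose with neonatal supernatant, by 0.72 ± 0.14 with adjusted p 0.00104 in adult and 0.89 ± 0.14 with adjusted p 0.000246 in neonatal cells.

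Of 10 measured inhibitors of angiogenesis, 2 rose and 5 fell in adult cells (median -0.47), against 28.2% and 23.9% of all genes, and 2 and 7 in neonatal cells (median -0.48), against 28.3% and 19.5%, under adult supernatant. Under neonatal supernatant the counts were 1 and 4 in adult cells (median -0.025), against 16.1% and 11.2%, and 0 and 5 in neonatal cells (median -0.27), against 10.7% and 7.62%. Those that rose with adult supernatant were the chemokines Cxcl9 and Cxcl10, by 8.45 ± 0.46 with adjusted p 1.35e-10 and 6.70 ± 0.44 with adjusted p 1.59e-09 in adult and 7.45 ± 0.46 with adjusted p 8.46e-10 and 7.21 ± 0.44 with adjusted p 8.85e-10 in neonatal cells. Timp3, an inhibitor of metalloproteinases that also blocks Kdr, fell with adult supernatant (-1.95 ± 0.14 with adjusted p 3.21e-09 in adult and -1.50 ± 0.14 with adjusted p 1.05e-07 in neonatal cells). It also fell in adult cells with neonatal supernatant (-0.48 ± 0.14 with adjusted p 0.0142, limma). Thbs1 (thrombospondin 1) had the smallest p of the list with neonatal supernatant, where it fell (-0.74 ± 0.083 with adjusted p 4.84e-06 in adult and -0.43 ± 0.083 with adjusted p 0.00128 in neonatal cells). With adult supernatant Thbs1 fell too (-0.52 ± 0.083 with adjusted p 5.87e-05 in adult and -0.49 ± 0.083 with adjusted p 0.00011 in neonatal cells). Tnmd (tenomodulin), an angiogenesis inhibitor that also marks tendon cells, fell in all 4 responses, with differences of -2.46 ± 0.30 with adjusted p 2.94e-06 and -1.62 ± 0.30 with adjusted p 0.000635 in adult cells with adult and neonatal supernatant and -2.85 ± 0.30 with adjusted p 6.46e-07 and -1.32 ± 0.30 with adjusted p 0.00483 in neonatal cells.

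Angptl4 is a known target both of the hypoxia response and of the PPAR fatty acid receptors, and genes of each were listed. Of 13 hypoxia-response genes, 13 rose in adult and 13 in neonatal cells with adult supernatant, against 28.2% and 28.3% of all genes, and 11 rose in adult and 10 in neonatal cells with neonatal supernatant, against 16.1% and 10.7%, and none fell. Adult supernatant gave them a median difference of 1.96 in adult and 1.81 in neonatal cells, and neonatal supernatant 1.21 in adult and 1.17 in neonatal cells, beside medians of 0.03 to 0.07 over all genes. Bnip3, a mitophagy receptor, rose by 3.30 ± 0.17 with adjusted p 9.12e-11 and 2.24 ± 0.17 with adjusted p 7.14e-08 in adult and 3.32 ± 0.17 with adjusted p 1.2e-10 and 2.15 ± 0.17 with adjusted p 1.37e-07 in neonatal cells. Pgk1, a glycolytic enzyme, rose by 1.96 ± 0.10 with adjusted p 9.29e-11 and 1.41 ± 0.10 with adjusted p 3.69e-08 in adult and 1.81 ± 0.10 with adjusted p 3.54e-10 and 1.31 ± 0.10 with adjusted p 1.11e-07 in neonatal cells. Of 8 genes of the PPAR and fatty acid response, adult supernatant raised 2 and lowered 3 in adult cells (median -0.096), against 28.2% and 23.9% of all genes, and raised 4 and lowered 4 in neonatal cells (median 0.18), against 28.3% and 19.5%. Neonatal supernatant raised 2 and lowered 2 in adult cells (median 0.0016), against 16.1% and 11.2%, and raised 2 and lowered 1 in neonatal cells (median 0.10), against 10.7% and 7.62%. The share raised by adult supernatant in adult cells was near that of all genes. Plin2, a lipid droplet protein, rose in all 4 responses, by 1.14 ± 0.078 with adjusted p 2.46e-09 and 0.42 ± 0.078 with adjusted p 0.000641 in adult and 0.72 ± 0.078 with adjusted p 1.02e-06 and 0.33 ± 0.078 with adjusted p 0.00613 in neonatal cells. Fabp4, a fatty acid carrier, rose by 1.93 ± 0.18 with adjusted p 1.26e-07 and 2.03 ± 0.18 with adjusted p 3.56e-07 in adult and 1.90 ± 0.18 with adjusted p 1.96e-07 and 1.75 ± 0.18 with adjusted p 2.46e-06 in neonatal cells. Pdk4, a further PPAR target, fell in all 4, with differences of -0.65 ± 0.19 with adjusted p 0.00998 and -1.07 ± 0.19 with adjusted p 0.000515 in adult and -1.12 ± 0.19 with adjusted p 0.000145 and -1.19 ± 0.19 with adjusted p 0.000286 in neonatal cells. The part of either gene group in the Angptl4 level was not tested.

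Markers of other cells differed between the groups too. The 6 measured mural cell markers of 7 listed summed to 307 to 357 CPM in adult cells with adult supernatant, 757 to 892 CPM with neonatal supernatant and 1218 to 1268 CPM in media. In neonatal cells their sums were 254 to 267, 573 to 715 and 741 to 1040 CPM in the same order. Ptn stood at 2.51 to 5.65 CPM in all 4 supernatant groups. Endothelial sums were 40.3 to 62.3, 45.8 to 54.5 and 45.4 to 48.7 CPM in adult cells and 26.6 to 40.2, 17 to 25.1 and 22.5 to 27.4 CPM in neonatal cells, in the same order. Macrophage sums over 8 markers were 64 to 76.3, 89.7 to 116 and 103 to 129 CPM in adult cells and 44.8 to 57.1, 55 to 89.3 and 36.4 to 59.1 CPM in neonatal cells. Single mural markers went apart in part. With adult supernatant all those measured but Abcc9 fell in cells of either age. In adult cells with neonatal supernatant Abcc9 rose (1.03 ± 0.34, adjusted p 0.0347, limma). Notch3, Pdgfrb, Mcam and Rgs5 fell there, and Cspg4 did not pass. Between ages in media, Mcam (-2.11) and Rgs5 (-1.13) were lower in adult cells and Pdgfrb (0.84) and Notch3 (0.94) higher. Single macrophage markers went apart too. In adult cells with adult supernatant Ptprc (2.51 ± 0.55, adjusted p 0.00112, limma), Itgam (2.05 ± 0.47, 0.00148) and Csf1r (0.59 ± 0.22, 0.0342) rose. Lyz2 fell there (-1.36 ± 0.20, 2.52e-05). In neonatal cells with adult supernatant Itgam, Ptprc, Mrc1, Csf1r and C1qa rose and Lyz2 fell. The T cell sums were 4.87 to 14.6, 4.02 to 4.53 and 1.63 to 3.14 CPM in adult cells and 6.82 to 7.74, 2.81 to 4.56 and 2.09 to 3.96 CPM in neonatal cells. With adult supernatant Cd4 rose in adult (3.21 ± 0.58, adjusted p 0.000175, limma) and neonatal cells (3.98 ± 0.58, 2.4e-05). Cd3d rose in adult cells (1.88 ± 0.52, 0.00564) and did not pass in neonatal cells (0.33 ± 0.52, 0.629). Cd8a and Lck passed in neither. The part of these cells in the members' levels was not tested.

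For the 2 members whose means spanned at least 2 log2 units, the genes whose 6 group means ran closest were sought. Genes with Gm-number or Rik names, spreadsheet dates and a repeated name were left out, which left 11359 averaging 1 log2 CPM or more. Both members spanned 3.65 log2 units. For Angptl4 the closest were Klk8, Itpk1 and Hivep3, with root mean square differences of 0.316, 0.349 and 0.357 log2 units after centring. For Ptn they were Myom1, Dsp and Arc, at 0.415, 0.431 and 0.462. The 6 group means rest on the same 18 libraries for every gene.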

How the data were processed

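The members and gene lists were chosen with earlier results of these data known. The deposited table gives log2 CPM for 14391 genes in 18 libraries, made by the authors with kallisto on GRCm39 and limma 3.56.2, per the submitters' processing notes; which name no version for kallisto. Per the labels' protocols, libraries were polyadenylated RNA (NEBNext Ultra II), on 1 batch date. Depth was estimated from the spacing of low values with an assumed offset of 2 reads; whole reads were not recovered, so no count test was run.

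Here limma 3.58.1 (R 4.3.3; lmFit, contrasts.fit, eBayes with trend, two-sided) was fitted to all libraries and genes, giving 12 residual degrees of freedom and 4.59 from the prior, with no replicate block. It was tested on simulated data. The labels' groups were used: each supernatant against media, adult against neonatal supernatant, adult against neonatal cells, and interactions. All members and receptors are named, and from other lists at most 4 genes, taken from those with the smallest p in a comparison. Exceptions were chosen after their values were seen. These are the marker genes named singly, Tnmd and Pdk4 in adult cells with adult supernatant, and Thbs1 with adult supernatant. Furin and Plau in adult cells with neonatal supernatant are exceptions too. Low values were filtered by the authors as the file shows, at 1 CPM in at least 3 libraries. Of the names, 21 are spreadsheet dates and 1 is repeated. GENCODE M21 and RefSeq tables, on GRCm38, gave lengths and sequences only. Alternatives were scaling, an added pseudocount (0.1 or 1 CPM), only genes above a 5 CPM filter, no trend, array weights, only the groups compared, a replicate block and left-out libraries. Intervals of 95% and the limit of 3 reads cover these libraries and counting error only. Python 3.11.15 made the tables.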

Additional observations from a re-analysis of the deposited data

Results flagged for a closer look

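The response to supernatant differed between adult and neonatal tendon cells for 4 members in 5 tests of the difference itself, by limma's interaction term over all genes. Of all genes, 1.55% were called higher and 3% lower for adult supernatant, and 0.361% and 0.493% for neonatal supernatant. For Figf the adult response minus the neonatal one was -1.32 with adult supernatant (adjusted p 2.56e-05) and -0.94 with neonatal supernatant (adjusted p 0.00361), with all 6 supernatant libraries of adult cells below their media libraries and all 6 of neonatal cells above theirs. For Angptl4 the response to adult supernatant was larger in adult cells by 1.28 (adjusted p 0.0307), and for Angptl2 by 0.43 (adjusted p 0.0377). For Hgf the response to neonatal supernatant was larger in adult cells by 1.72 (adjusted p 0.0348). The Figf calls held in each alternative run, while those of Angptl4, Angptl2 and Hgf were each lost in 9 or more of 22 alternatives. Without the 2 media libraries high in interferon genes the Figf interactions were -1.25 (adjusted p 4.62e-06) and -0.87 (adjusted p 0.000586). Groups of 3 are too small for a test of single stray libraries.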

How the results depend on the processing

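No called direction of a member reversed under any alternative. Over 1840 repeats of a member's comparison, 75 lost a call, 29 gained one and 1736 kept their side of the threshold, and of the 45 member calls 33 held throughout. A further 56 repeats changed the sign of a difference that passed in neither fit. Counts of members called (higher and lower together) moved by over 1.5 times in 4 comparisons. Adult against neonatal supernatant in neonatal cells gave 3 in place of 5 after quantile normalization. The interaction with adult supernatant gave 1 in place of 3 without trend. The interaction with neonatal supernatant gave 1 in place of 2 without trend, with only the groups compared, and without both media libraries high in interferon genes. The cause was not tested. Leaving out 1 library at a time, the 4 called members of neonatal cells with neonatal supernatant ranged from 2, without supernatant library 1, to 6, those called in adult cells with adult supernatant from 5 to 6 and with neonatal supernatant from 6 to 8, and those in neonatal cells with adult supernatant from 5 to 7. Adult against neonatal supernatant ranged from 3 to 4 in adult and 4 to 6 in neonatal cells, adult against neonatal cells were at 2 in media, at 1 with adult and from 4 to 6 with neonatal supernatant, and both interactions ranged from 1 to 3.

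The labels do not say whether the replicate numbers pair the libraries. Same-numbered libraries of different groups deviated together in 2 of 45 pairs of libraries (r over 0.1, range -0.16 to 0.22). Of the 3 replicate numbers, 9 of 18 libraries correlated best with their own. With the replicate number as a block, the counts were 6, 8, 5 and 4 for the 4 responses, 3 and 4 between supernatants, 2, 1 and 4 between ages in media, adult and neonatal supernatant, and 3 and 2 for the interactions. Under the block the calls of Hgf in neonatal cells with adult supernatant (adjusted p 0.0511), Angpt1 between supernatants in neonatal cells (0.0521) and Ptn between ages in media (0.0508) were lost. At these depths Mdk, Pgf, Angpt1, Hgf and Ptn with supernatant are the members whose low CPM limits precision most. The 5 CPM filter kept 11334 genes.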

Other observations

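The balance between the 2 ligands of Flt4 by age was not tested. In media, Figf stood at 63.5 CPM per kb and Vegfc at 7.33 in adult cells, and at 21.9 and 5.93 in neonatal cells. With adult supernatant the values were 38.2 and 8.07 in adult and 33.2 and 9.65 in neonatal cells, so the groups of different age lay closer together for Figf than in media. With neonatal supernatant they were 39.1 and 10.1 in adult and 26.1 and 8.25 in neonatal cells. Angpt2, the counterpart of Angpt1 at Tek, was at 10.6, 6.72 and 8.11 CPM in adult cells with neonatal supernatant, against 1.49, 0.95 and 2.05 CPM in neonatal cells with it, a difference of 2.55 ± 0.31 (adjusted p 1.65e-05, limma). Angpt2 was also higher in adult than in neonatal cells in media, by 1.02 ± 0.31 (adjusted p 0.0216, limma). With adult supernatant that age difference was 0.20 ± 0.31 and did not pass (adjusted p 0.739). In neonatal cells adult supernatant exceeded neonatal supernatant by 1.83 ± 0.31 (adjusted p 0.000312, limma) for the same gene. In adult cells the difference between supernatants was -0.52 ± 0.31, which did not pass (adjusted p 0.236).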
